A study of Mus musculus with 50 samples.

Results

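The bile acid synthesis and transport genes are 10 genes of the liver, taken by name from a table of 12185 genes. They are the synthesis enzymes Cyp7a1, Cyp8b1, Cyp27a1 and Cyp7b1, the conjugation enzymes Slc27a5 and Baat, the carriers Abcb11 and Slc10a1, and the nuclear receptors Nr1h4 and Nr0b2. All 10 were in the table, and all 10 had a mean value of at least 1, the level that a gene needed to enter a test. No measured value was used to choose them.

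Hepatocytes turn cholesterol into bile acids by a classical route that starts at the rate-limiting enzyme Cyp7a1 and an alternative route that runs through Cyp27a1 and Cyp7b1, and Cyp8b1 sets the share of cholic acid. The acids are activated and joined to taurine by Slc27a5 and Baat, pumped into bile by Abcb11 (BSEP), and taken back from portal blood by Slc10a1 (NTCP). Bile acids activate the receptor Nr1h4 (FXR), which is known to induce Nr0b2 (SHP) and Abcb11, and SHP represses Cyp7a1 and Cyp8b1.

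The promoters of Cyp8b1, Nr0b2 and Abcb11 are shown because these genes took part in opposed relations described with the gene pairs. Each is the 250 bases before the start of transcription in RefSeq (GRCm38.p6), printed 5′ to 3′ on the strand of the gene. Capitals mark matches to TATAAA or to AGGTCA on either strand, so that TGACCT is AGGTCA read from the other strand. Cyp8b1 lies at chr9:121916306-121916555 (minus strand), Nr0b2 at chr4:133553126-133553375 (plus strand) and Abcb11 at chr2:69342617-69342866 (minus strand).
Cyp8b1: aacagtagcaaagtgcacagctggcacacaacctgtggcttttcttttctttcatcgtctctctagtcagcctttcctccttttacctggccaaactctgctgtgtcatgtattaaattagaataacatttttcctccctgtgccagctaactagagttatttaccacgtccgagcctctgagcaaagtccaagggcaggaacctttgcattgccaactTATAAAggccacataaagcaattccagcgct
Nr0b2: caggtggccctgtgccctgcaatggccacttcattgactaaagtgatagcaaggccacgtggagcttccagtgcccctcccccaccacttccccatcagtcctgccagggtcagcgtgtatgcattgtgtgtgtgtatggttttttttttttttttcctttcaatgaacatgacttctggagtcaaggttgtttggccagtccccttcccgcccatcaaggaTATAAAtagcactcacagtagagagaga
Abcb11: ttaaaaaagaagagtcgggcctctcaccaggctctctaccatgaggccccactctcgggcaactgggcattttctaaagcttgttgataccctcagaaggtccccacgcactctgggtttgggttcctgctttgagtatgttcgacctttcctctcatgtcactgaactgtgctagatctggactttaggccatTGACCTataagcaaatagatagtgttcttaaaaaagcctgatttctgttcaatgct

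The Cyp8b1 promoter held TATAAA from -31 to -26 and the Nr0b2 promoter held it from -28 to -23, counted from the base before the start as -1. TATAAA was found in 12.4% of the 32851 mouse promoters searched over the same length and on both strands. The Abcb11 promoter held AGGTCA, the half-site that many nuclear receptors bind, on the minus strand from -56 to -51, and 14.02% of promoters held this motif. Among the member promoters not printed, AGGTCA was also found in the Nr1h4 promoter (minus strand, -214 to -209) and in 1 of 2 Slc10a1 promoters (plus strand, -87 to -82), and TATAAA in the other (minus strand, -128 to -123). CAAGGTCA, which contains AGGTCA and was in 1.33% of promoters, had no match in any of the 7 member promoters. AGGTCANTGACCT, an inverted repeat of AGGTCA in which N is any base, was in 0.00609% of promoters and likewise had no match there. Only exact matches were counted for each motif. The Abcb11 promoter reads aggccatTGACCT around its half-site, which differs from the inverted repeat by 1 base. How many promoters hold such an inexact repeat was not counted. The 7 promoters belonged to the 6 members with an entry, and those of Cyp27a1, Slc10a1 and Nr1h4 make up the rest.

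The samples were 50 liver RNA libraries from N2 mice labelled male, which form 1 group. They came from crosses of the chromosome substitution strains B6.A4 and B6.A6, which carry chromosome 4 or 6 of strain A/J on a C57BL/6J (B6) background, with a backcross to B6. Each mouse therefore had 1 B6 homolog of chromosomes 4 and 6 and 1 homolog that could be A/J, B6 or recombinant, and the rest of the genome was B6 in every mouse. The labels call the animals adult males of an F2 cross, while the study describes N2 mice of 5 weeks, fasted overnight, with RNA from the caudate lobe. The study also measured traits in males and females and ran its scans both with sex as a covariate and without it. It does not state the sex of the mice with liver RNA, so male rests on the labels alone and was not tested here. Genotypes were not used here, so the comparisons below rest on the numbers in the library titles and on gene levels. The titles gave a library number, which ran from 1 to 30 in 28 libraries and from 31 to 59 in 22, and an animal number, with 48 distinct values because 2 animal numbers stood on 2 libraries each.

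Values are normalized CPM, the CPM of a library size that the authors scaled to make libraries comparable. The 12185 genes took up 11965594 to 29976557 reads in a library. The value of 3 reads lay between 0.0951 and 0.259 normalized CPM, a floor that covers counting error only, and the lowest count of a bile acid gene in any library was 82 reads. All 7 hepatocyte markers were in the table, and their summed level ran from 79847 to 123766, against 16.99 to 41.8 for the 4 of 6 cholangiocyte markers in the table, with Krt7 and Cldn7 not in it. The liver is a mixture of cells, and in bulk tissue fewer cells of a type and less RNA per cell cannot be told apart. Library 15 held the lowest value of 5 members (Cyp7b1, Baat, Abcb11, Nr1h4 and Nr0b2), and library 44 held the highest value of 4. Glul, a marker of hepatocytes around the central vein, fell into separate clusters of 10 libraries at 207 to 282 and 40 libraries at 380 to 585 normalized CPM. The same 10 libraries had the 10 lowest values of Cyp2d9, a male-biased cytochrome P450, at 349 to 1064 against 1347 to 2168, and libraries 15 and 24 were among them. What sets these 10 libraries apart is not stated in the labels and was not tested. Relations that rest on these libraries are therefore given with and without them or within the clusters.

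The genes of the classical route differed in how much they varied. Cyp7a1, on chromosome 4 from 6265612 to 6275633 in GRCm38, ran from 45.6 to 423 normalized CPM with a median of 149. Its mean was 156 ± 80.4 (SD, n = 50), a coefficient of variation (CV) of 51.7%. The lowest and highest libraries thus differed 9.27-fold, and 98% of the 200 genes nearest in mean level had a smaller CV. Cyp8b1, the sterol 12-alpha-hydroxylase on chromosome 9 (121914356 to 121916305), ran from 324 to 989.8 with a median of 613 and a mean of 586 ± 134 (SD). Its CV of 22.8% exceeded that of 82.5% of its 200 nearest genes.

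In the alternative route Cyp27a1, the mitochondrial sterol 27-hydroxylase on chromosome 1 (74713574 to 74737892), ran from 220.8 to 533 with a median of 394 and a mean of 384 ± 66.2 (SD). Its lowest value was in library 24. Cyp7b1, the oxysterol 7-alpha-hydroxylase on chromosome 3 (18071950 to 18243338), ran from 6.97 to 218.2 with a median of 55.04 and a mean of 65.9 ± 52.9 (SD). This 31.3-fold range was the widest of the 10 genes, and its CV of 80.2% exceeded that of 99.5% of the genes nearest in level. Cyp7b1 lies outside chromosomes 4 and 6.

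The conjugation enzymes varied least. Slc27a5, the bile acyl-CoA synthetase on chromosome 7 (12988346 to 12998192), ran from 587 to 1056 with a median of 745 and a mean of 740.2 ± 72.4 (SD). Its CV was 9.78%, and its highest value was in library 44. Baat, the amino acid N-acyltransferase on chromosome 4 (49489422 to 49506557), ran from 181 to 293 with a median of 249 and a mean of 249 ± 22.6 (SD). The CV of Baat, 9.07%, was the lowest of the 10 genes although the gene lies on a chromosome that differed between the mice.

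The carriers held an intermediate place. Abcb11, on chromosome 2 (69238282 to 69342616), ran from 185 to 348 with a median of 262 and a mean of 266 ± 38.6 (SD), a CV of 14.5%. Slc10a1, on chromosome 12 (80953183 to 80968705), ran from 396 to 641 with a median of 506 and a mean of 511 ± 68.0 (SD), a CV of 13.3%. Neither carrier varied by more than 1.88-fold between its lowest and highest library.

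The receptors differed from each other. Nr1h4, on chromosome 10 (89454234 to 89533585), ran from 55.5 to 101.4 with a median of 81.7 and a mean of 81.5 ± 11.8 (SD), a CV of 14.4%. Nr0b2, on chromosome 4 (133553376 to 133556536), ran from 5.84 to 74.0 with a median of 24.9 and a mean of 27.95 ± 13.9 (SD), a CV of 49.6%. The receptor that induces Nr0b2 therefore spanned 1.83-fold and Nr0b2 itself 12.7-fold. Cyp7a1, Cyp7b1 and Nr0b2 were the 3 members with a CV above at least 90% of their nearest genes, a place held by 10.4% of the genes tested, and the other 7 members had CVs of 9.07% to 22.8%. Counting error made up 0.160% to 4.00% of the variance of the members. The plot of all libraries shows these ranges side by side.

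**Figure D1:**
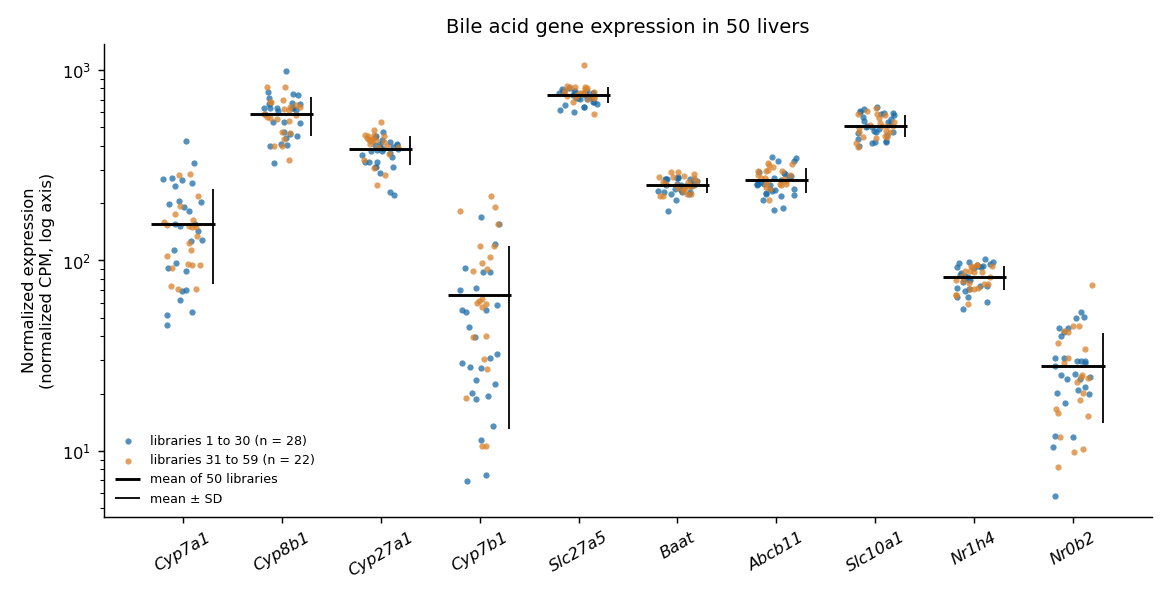
Normalized CPM (log axis) of the 10 bile acid genes, with 1 point per library coloured by library number, the mean of 50 libraries as a horizontal line and the mean ± SD as a vertical line. Cyp7a1, Cyp7b1 and Nr0b2 spread over 9.27-fold, 31.3-fold and 12.7-fold, while Baat and Slc10a1 stay within 1.62-fold.

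Per kb of exon, which allows levels of different genes to be compared, Slc27a5 had the highest mean level at 304 ± 29.7 normalized CPM per kb (SD, n = 50) and Nr0b2 the lowest at 24.7 ± 12.2. Between them the order of mean levels was Cyp8b1 (301 ± 68.5), Slc10a1 (232 ± 30.9), Cyp27a1 (177 ± 30.5), Baat (128 ± 11.6), Abcb11 (51.6 ± 7.51), Cyp7a1 (37.3 ± 19.3), Nr1h4 (35.4 ± 5.10) and Cyp7b1 (30.4 ± 24.4). A neighbour in this order was taken to differ when the mean log2 difference exceeded the SD of the paired differences. By that measure Cyp8b1 stood above Slc10a1 in 44 of 50 libraries, Slc10a1 above Cyp27a1 in 47, Cyp27a1 above Baat in 46 and Baat above Abcb11 in 50. Slc27a5 and Cyp8b1 did not differ beyond this spread, nor did adjacent genes from Abcb11 down to Nr0b2. Genes further apart in the order were not compared.

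Each relation below was tested with limma on log2(value + 0.5) over 11436 genes, 2-sided, and called at a Benjamini-Hochberg adjusted p under 0.05. Log2 differences on this scale understate changes of low genes. Nothing in the labels ties the libraries to cultures or litters, so p-values measure the spread between these libraries.

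None of the 10 members differed between the sets of library numbers, where 13.8% of all genes tested were called. Cyp7b1 had the largest difference, with a mean of 51.9 ± 42.6 (SD, n = 28) in libraries 1 to 30 and 83.8 ± 59.9 (SD, n = 22) in libraries 31 to 59. Its log2 difference was 0.72 (SE 0.33) with a limma adjusted p of 0.135. Cyp7a1 had means of 165 ± 93.1 and 143 ± 60.4 normalized CPM, a log2 difference of -0.09 (SE 0.21). At an unadjusted p under 0.05, 3 members passed (Cyp27a1, Cyp7b1 and Slc27a5), and edgeR on the recovered reads called 0.

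With the animal number, 4 of the 10 members were related, against 14.2% of all genes. Cyp7a1 rose by 0.73 log2 units per 100 animal numbers (SE 0.18, limma adjusted p = 0.0038) and Slc10a1 rose by 0.24 (SE 0.043, adjusted p = 0.000201). Nr0b2 fell by 0.60 (SE 0.19, adjusted p = 0.0246) and Cyp7b1 fell by 0.92 (SE 0.31, adjusted p = 0.0389). The rate-limiting enzyme and the uptake carrier were therefore higher, and Cyp7b1 of the alternative route lower, in animals with higher numbers, while the call of Nr0b2 depended on the fit. What the animal number stands for, such as litter, date or batch, is not stated in the sources used here, and its part in these relations was not tested.

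The animal numbers fell into separate clusters, a lower of 9 libraries and an upper of 41, so correlations are given within them. With the cluster in the fit, an alternative chosen after seeing the data, 3 members were called, against 7.57% of all genes. The slope of Cyp7a1 was then 1.34 (SE 0.27, limma adjusted p = 0.00189), that of Slc10a1 0.27 (SE 0.071, adjusted p = 0.0141) and that of Cyp7b1 -2.04 (SE 0.49, adjusted p = 0.00689). The slope of Nr0b2 stayed at -0.60 (SE 0.31), and its call was lost at an adjusted p of 0.236.

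Within the upper cluster Cyp7a1 had r = 0.623 (permutation p = 3e-05) and rho = 0.567 (permutation p = 0.00015) with animal number, with r = 0.568 after leaving out 2 libraries farthest from the median number, and 0.639 and 0.617 in the library sets. Slc10a1 had r = 0.516 (permutation p = 0.00068) and rho = 0.506 (permutation p = 0.00078) there, with r = 0.519 without 2 libraries and 0.638 and 0.336 within the sets. Nr0b2 had r = -0.276 (permutation p = 0.0814) and rho = -0.227 (permutation p = 0.153), with r = -0.299 without 2 libraries and -0.112 and -0.552 within the sets. In the lower cluster r was -0.089 for Cyp7a1, -0.192 for Slc10a1 and 0.499 for Nr0b2 (permutation p = 0.834, 0.636 and 0.178). Without 2 libraries these were 0.668, 0.130 and -0.195, so the 9 libraries do not settle a direction. The relations of Cyp7a1 and Slc10a1 were thus seen among the 41 libraries of the upper cluster and remain undecided in the lower.

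Cyp7b1 had r = -0.536 (permutation p = 0.00037) and rho = -0.569 (permutation p = 0.00016) with animal number in the upper cluster, with r = -0.561 without 2 libraries and -0.474 and -0.571 within the sets. In the lower cluster its r was -0.331 (permutation p = 0.389), and -0.040 without 2 libraries. Its call without a cluster in the fit was unstable. There the limma adjusted p was 0.0595 without library 24 and 0.0663 with the library set in the fit, and the call was lost on leaving out any 1 of 8 libraries, numbered 4, 24, 25, 27, 28, 32, 33 and 57. With membership in the lower Glul cluster in the fit, an alternative chosen after seeing the data, the slope of Cyp7b1 was -1.06 (SE 0.19, adjusted p = 0.00011). In that fit 4 members were again called, against 17.1% of all genes. Among 29 marker genes of liver cell types, 5 rose and 1 fell with animal number, namely the hepatocyte markers Alb (slope 0.26, limma adjusted p = 0.00179) and Cps1 (0.30, adjusted p = 0.0249), the stellate cell marker Dcn (0.34) and the erythroid markers Hbb-bs (0.64) and Hba-a1 (0.74) rising and the erythroid Alas2 (-0.30) falling. Their part in the relations of the bile acid genes was not tested. The plot against animal number shows the 4 genes by library.

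**Figure D2:**
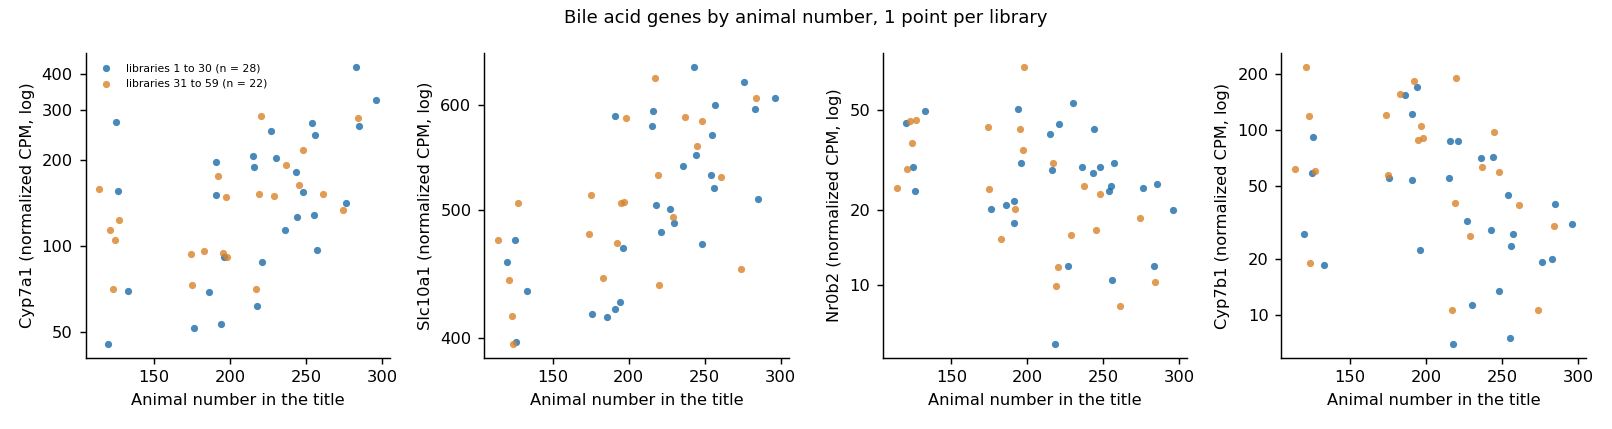
Normalized CPM (log axis) of Cyp7a1, Slc10a1, Nr0b2 and Cyp7b1 against the animal number in the title, with 1 point per library (n = 50) coloured by library number. Cyp7a1 and Slc10a1 lie higher at higher animal numbers among the 41 libraries of the upper cluster of numbers (r = 0.623 and 0.516) and Cyp7b1 lies lower (r = -0.536), while Nr0b2 has r = -0.276 there.

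Each of the 10 members was then used as the predictor of all genes, and a pair was called when its adjusted p was under 0.05 in both directions. Of the 45 pairs, 12 were called (26.7%), 9 with a positive and 3 with a negative slope. The share of all genes called was 6.52% for Cyp7a1, 10.8% for Cyp8b1, 6.16% for Cyp27a1, 24.1% for Cyp7b1, 3.76% for Slc27a5, 11% for Baat, 20.8% for Abcb11, 10% for Slc10a1, 3.66% for Nr1h4 and 19.2% for Nr0b2. The 12 pairs had the same sign in both sets of library numbers.

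**Figure D3:**
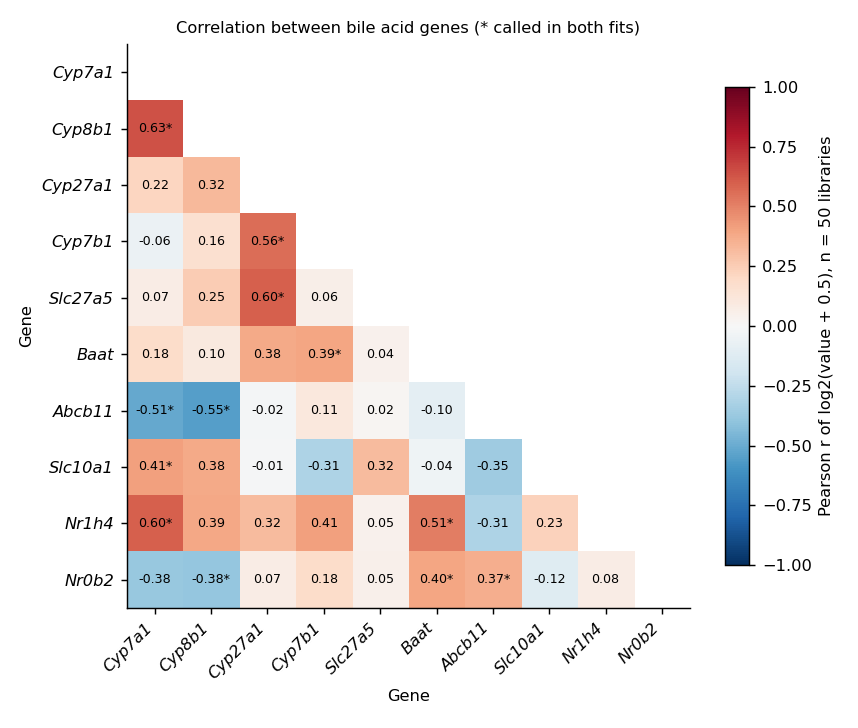
Pearson r of log2(value + 0.5) over 50 libraries for the 45 pairs of bile acid genes, with an asterisk on the 12 pairs called in both fits. Cyp7a1 and Cyp8b1 rise together (0.63) and both run against Abcb11 (-0.51 and -0.55).

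Cyp7a1 and Cyp8b1, the enzymes of the classical route, rose together. Cyp8b1 was higher by 0.22 log2 units (SE 0.037) per SD of Cyp7a1, with a limma adjusted p of 0.000328 for the weaker direction. The correlation was r = 0.633 (permutation p = 1e-05, the smallest that 100000 resamples can give) and rho = 0.639 (permutation p = 1e-05). With the 2 libraries farthest from the median of Cyp7a1 left out it was 0.600, and 0.656 and 0.608 within the sets. Within the Glul clusters r was 0.319 (10 libraries) and 0.668 (40 libraries).

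Cyp7a1 also rose with Nr1h4, the bile acid receptor. Nr1h4 was higher by 0.13 log2 units (SE 0.025) per SD of Cyp7a1, with a limma adjusted p of 0.00184. Here r was 0.595 (permutation p = 3e-05) and rho 0.646 (permutation p = 2e-05), 0.592 without 2 libraries, 0.661 and 0.445 within the sets, and 0.478 and 0.538 within the Glul clusters. A pair of Cyp7a1 and Slc10a1, with r = 0.411 (permutation p = 0.00296) and rho = 0.404 (permutation p = 0.00366), was called at an adjusted p of 0.0453. That call was lost on leaving out any 1 of 25 libraries and with 1 library per animal number (adjusted p = 0.0733), and r was 0.360 without 2 libraries, 0.514 and 0.200 within the sets, and -0.028 within the cluster of 10 libraries.

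The export pump ran opposite to both enzymes of the classical route. Abcb11 was lower by 0.11 log2 units (SE 0.026, limma adjusted p = 0.00821) per SD of Cyp7a1, with r = -0.510 (permutation p = 0.0001) and rho = -0.565 (permutation p = 3e-05). Library 15, the lowest in Abcb11, was also low in Cyp7a1 at 62.1 normalized CPM, and r was -0.638 without it. Again leaving out 2 libraries r was -0.506, and within the sets it was -0.568 and -0.352. Within the Glul clusters r was -0.235 (10 libraries) and -0.582 (40 libraries).

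Against Cyp8b1, Abcb11 had r = -0.553 (permutation p = 3e-05) and rho = -0.521 (permutation p = 0.00017), and a slope of -0.12 (SE 0.025, limma adjusted p = 0.00206). It had r = -0.475 without 2 libraries, -0.695 and -0.310 within the sets, and -0.775 and -0.359 within the Glul clusters. The opposed relations of Abcb11 to both enzymes were called in all 50 leave-one-out fits, under each other scaling, filter, covariate and set of libraries run for pairs, and with the Glul cluster in the fit. Animal number was not among the covariates run for pairs. Within the lower and upper clusters of animal numbers r of Abcb11 was -0.824 and -0.418 with Cyp7a1, and -0.450 and -0.554 with Cyp8b1.

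Nr0b2, which encodes the repressor SHP, ran opposite to Cyp8b1, with r = -0.385 (permutation p = 0.00551) and rho = -0.396 (permutation p = 0.00448). The slope was -0.29 (SE 0.096) and the limma adjusted p 0.0408, and 11 of 50 leave-one-out fits lost the call. Without 2 libraries r was -0.346, and within the sets it was -0.434 and -0.334. Between the receptor gene and Cyp7a1 the pair was not called, with adjusted p-values of 0.0311 and 0.0608 for the 2 directions. Its r was -0.378 (permutation p = 0.00642) and rho -0.434 (permutation p = 0.00167), and r was -0.511 without library 15, -0.382 without 2 libraries, and -0.268 and -0.612 within the sets. Within the Glul clusters r of this pair differed in sign, at 0.178 (10 libraries) and -0.501 (40 libraries). The plot of Cyp7a1 against its partners shows library 15 at the lower left of the panels for Abcb11 and Nr0b2, while most other libraries lie along a falling band.

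**Figure D4:**
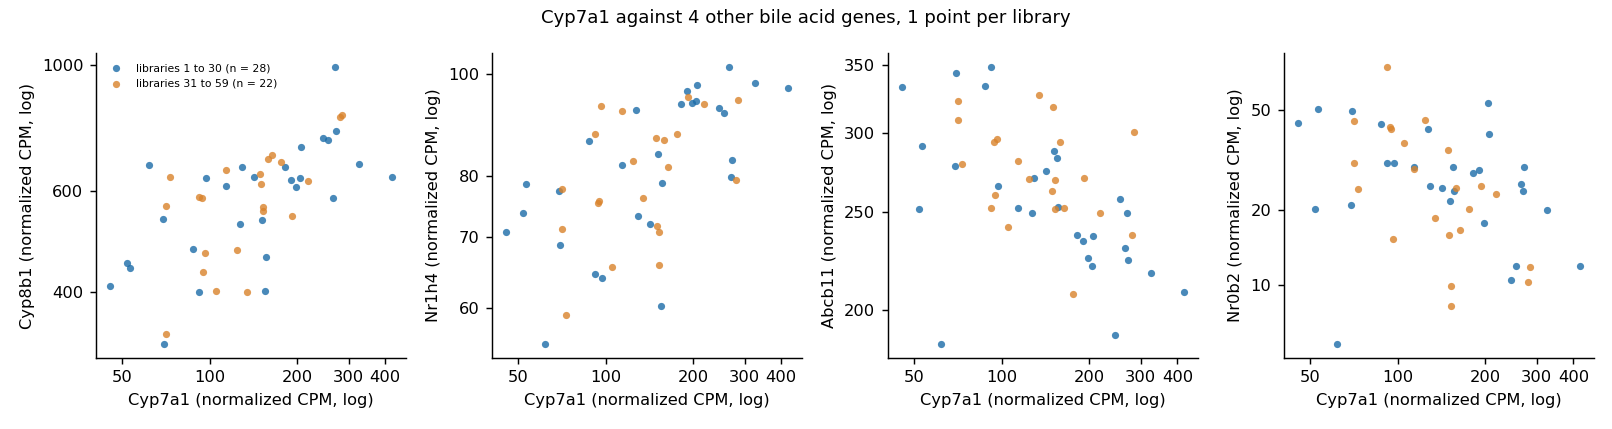
Normalized CPM of Cyp8b1, Nr1h4, Abcb11 and Nr0b2 against that of Cyp7a1 (both axes log), with 1 point per library (n = 50) coloured by library number. Cyp8b1 and Nr1h4 rise with Cyp7a1 (r = 0.633 and 0.595) and Abcb11 falls (r = -0.510), while the pair with Nr0b2 (r = -0.378) was not called.

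In the alternative route Cyp27a1 and Cyp7b1 rose together, with r = 0.556 (permutation p = 4e-05), rho = 0.530 (permutation p = 7e-05) and a limma adjusted p of 0.00104. It had r = 0.560 without 2 libraries and 0.408 and 0.655 within the sets. Within the Glul clusters r was 0.243 and 0.203, and with the cluster in the fit the adjusted p was 0.481. Cyp27a1 also rose with the conjugation enzyme Slc27a5, with r = 0.601 (permutation p = 1e-05), rho = 0.546 (permutation p = 9e-05) and an adjusted p of 0.00103. For this pair r was 0.524 without 2 libraries, 0.510 and 0.628 within the sets, and 0.473 and 0.714 within the Glul clusters. In plain CPM, where each library is scaled to its own total, its r was 0.360 and its adjusted p 0.103.

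The remaining 4 pairs were positive, and library 15 was among those on which their calls depended. Baat and Nr1h4 had r = 0.510 (permutation p = 0.00013) and rho = 0.393 (permutation p = 0.00451), and r = 0.412 without library 15. Baat and Nr0b2 had r = 0.397 (permutation p = 0.00438) and rho = 0.300 (permutation p = 0.0348), and r = 0.262 without it. Cyp7b1 and Baat had r = 0.394 (permutation p = 0.00461) and rho = 0.331 (permutation p = 0.0196), and r = 0.295 without it. Abcb11 and Nr0b2, both known targets of FXR, had r = 0.365 (permutation p = 0.00919) and rho = 0.276 (permutation p = 0.0524), and r = 0.269 without it. On leaving out the 2 libraries farthest from the first gene's median, r of the 4 pairs ran from 0.198 to 0.345, and within the sets from 0.049 to 0.715. Within the lower and upper Glul clusters r was 0.650 and 0.292 for Baat and Nr1h4, and 0.736 and 0.386 for Baat and Nr0b2. It was 0.495 and 0.108 for Cyp7b1 and Baat, and 0.504 and 0.273 for Abcb11 and Nr0b2. All 4 calls were lost without library 15, at adjusted p-values from 0.0991 to 0.222, and all 4 were lost in plain CPM. Leaving out any 1 of 12 libraries lost the pair of Abcb11 and Nr0b2, any 1 of 6 that of Cyp7b1 and Baat, and any 1 of 5 that of Baat and Nr0b2, while Baat and Nr1h4 lost its call without library 15 alone. With 1 library per animal number the pair of Abcb11 and Nr0b2 was also lost, at an adjusted p of 0.0548.

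Cyp7a1, Baat and Nr0b2 lie on chromosome 4, which segregated in the cross and holds 6.38% of the genes in the table. Genotypes were not used, and each was compared with the most variable gene near it. Near Cyp7a1 and Baat this gene was chosen by its variation alone. Near Nr0b2 it was Extl1, which was also picked because the study maps its level to chromosome 4. The study reports a main effect locus for Extl1 there, mapped more finely in this cross. Whether the level of any of these nearby genes follows the local allele was not tested here. These comparisons therefore cannot show whether a member follows that allele. Within 10 Mb of Nr0b2 the most variable gene was Extl1, an exostosin-like glycosyltransferase, 0.800 Mb away and at 0.325 to 14.7 normalized CPM (median 3.03). Nr0b2 was not related to Extl1, with a slope of -0.18 (SE 0.10, limma adjusted p = 0.305). Cyp7a1 was not related to Trp53inp1, a stress-response gene 4.88 Mb away at 24.1 to 264 normalized CPM, with a slope of 0.16 (SE 0.10, adjusted p = 0.314). None of the 10 members was called with Trp53inp1, against 12.1% of all genes, and none had an unadjusted p under 0.05 in limma or a call by edgeR.

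Cyp8b1, on chromosome 9, was the 1 member called with Extl1, where 5.10% of all genes were called. It rose by 0.16 log2 units per SD of Extl1 (SE 0.042, limma adjusted p = 0.0204). The correlation was r = 0.475 (permutation p = 0.00052) and rho = 0.482 (permutation p = 0.00051), with r = 0.458 without 2 libraries and 0.499 and 0.446 within the sets. It was 0.362 among the 27 libraries with Extl1 below 5 and 0.552 among the 23 at 5 or more, a cut that was not planned. Within the Glul clusters r was 0.731 and 0.404. The call held under each other scaling, filter, covariate, tool and set of libraries and in all 50 leave-one-out fits, where the adjusted p reached 0.0444 at most. It also held with the Glul cluster in the fit (slope 0.14, SE 0.037, adjusted p = 0.0174), where 6.82% of all genes were called. Cyp7a1, the other enzyme of the classical route, had a slope of 0.25 (SE 0.097) with Extl1 and an adjusted p of 0.113.

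The most variable gene near Baat was Aldh1b1, a mitochondrial aldehyde dehydrogenase 3.68 Mb away at 26.8 to 196.8 normalized CPM. Baat was not related to it (slope -0.04, SE 0.019, limma adjusted p = 0.107). Of the members 2 were lower where Aldh1b1 was higher, against 17.6% of all genes called. Cyp7b1 fell by 1.00 log2 units per SD of Aldh1b1 (SE 0.10, adjusted p = 2.01e-10) and Cyp27a1 by 0.11 (SE 0.034, adjusted p = 0.0174), the latter lost without library 24 at an adjusted p of 0.0807. Aldh1b1 itself ran against Cyp2d9 across the libraries, with r = -0.252 and -0.555 within the Glul clusters.

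With the Glul cluster in the fit, 5 members were called with Aldh1b1, against 21.3% of all genes. Cyp7b1 again fell (slope -0.80, SE 0.17, limma adjusted p = 0.00066). Cyp7a1 rose by 0.64 (SE 0.14, adjusted p = 0.000687), Cyp8b1 by 0.23 (SE 0.060, adjusted p = 0.00383), Slc10a1 by 0.19 (SE 0.037, adjusted p = 0.0003) and Slc27a5 by 0.097 (SE 0.031, adjusted p = 0.0191). The direction for Cyp27a1 turned, to 0.06 at an adjusted p of 0.38. That for Cyp8b1 turned as well, from a slope of -0.058 (SE 0.047, adjusted p = 0.415) without the cluster.

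Cyp7b1 is known to be higher in male than in female mouse liver, and among these libraries, all labelled male, it followed the male-biased gene Cyp2d9. With Cyp2d9 as the predictor 4 members were higher and none lower, against 15.3% of all genes called. Cyp7b1 rose by 1.06 log2 units per SD of Cyp2d9 (SE 0.092, limma adjusted p = 1.97e-13), with r = 0.873 within the lower Glul cluster. Within the upper r was 0.754 (permutation p = 1e-05) and rho 0.732 (permutation p = 1e-05), with r = 0.765 without 2 libraries and 0.735 and 0.789 within the sets. With the cluster in the fit its slope was 1.15 (SE 0.18, adjusted p = 1.94e-05). Of the 29 marker genes of liver cell types 4 rose with Cyp2d9 and 6 fell. Those rising were the hepatocyte marker Serpina1c, the cholangiocyte marker Spp1, the endothelial Clec4g and the erythroid Alas2. Those falling were the stellate cell genes Des and Dcn, the endothelial Pecam1 and Oit3, and the erythroid Hbb-bs and Hba-a1. Endothelial and erythroid markers thus went both ways. With Glul 5 markers rose and 3 fell, and with Aldh1b1 8 rose and 3 fell. The part of these markers in the relations of the members was not tested.

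Cyp27a1 (slope 0.18, SE 0.029), Nr1h4 (0.10, SE 0.027) and Baat (0.065, SE 0.018) were the other members called with Cyp2d9, and all 3 calls were lost with the cluster in the fit. The slopes were then 0.12 (SE 0.057, limma adjusted p = 0.165) for Cyp27a1, 0.01 (SE 0.053, adjusted p = 0.909) for Nr1h4 and 0.075 (SE 0.035, adjusted p = 0.146) for Baat, the last no smaller than without the cluster. Within the lower and upper clusters r was 0.492 and 0.159 for Cyp27a1, 0.049 and 0.028 for Nr1h4, and 0.491 and 0.136 for Baat. Without library 15 the calls of Nr1h4 and Baat were lost, at adjusted p-values of 0.0617 and 0.0705, and in plain CPM they were lost at 0.131 and 0.328.

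Within the clusters 4 members were called with Cyp2d9, against 14.3% of all genes. Besides Cyp7b1, Nr0b2 was higher by 0.65 (SE 0.18, limma adjusted p = 0.0143), Slc10a1 lower by a slope of -0.21 (SE 0.046, adjusted p = 0.00183) and Cyp8b1 lower by a slope of -0.22 (SE 0.075, adjusted p = 0.0458). The sign for Cyp8b1 was the opposite without the cluster, where its slope was 0.098 (adjusted p = 0.137), or 0.14 and called (adjusted p = 0.032) without library 24. Within the lower and upper clusters its r was -0.545 and -0.246 (permutation p = 0.092 and 0.126). Its rho was -0.382 and -0.203 (permutation p = 0.279 and 0.208). Without 2 libraries r was 0.132 and -0.263, so the lower cluster does not settle a direction. The fit with the cluster was chosen after the clusters were seen.

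The relations to Glul likewise changed with the clusters. Without the cluster in the fit, 4 members rose with Glul, against 11.9% of all genes called. These were Cyp7b1 (slope 0.98, SE 0.11), Cyp27a1 (0.17, SE 0.030), Cyp8b1 (0.15, SE 0.042) and Nr1h4 (0.10, SE 0.027), at limma adjusted p-values of 7.89e-10, 2.6e-05, 0.0116 and 0.00805. The call of Nr1h4 was lost in plain CPM (adjusted p = 0.0883). With the cluster in the fit 1.21% of all genes and 2 members were called. Cyp7b1 kept its direction (slope 1.098, SE 0.29, adjusted p = 0.0455) and Abcb11 rose by 0.28 (SE 0.068, adjusted p = 0.0359), while Cyp8b1 turned to -0.09 at an adjusted p of 0.705. Without the cluster the slope of Abcb11 was -0.009 (SE 0.030, adjusted p = 0.889). Within the lower and upper clusters r with Glul was 0.276 and 0.493 for Cyp7b1, -0.332 and 0.338 for Cyp27a1, -0.084 and -0.128 for Cyp8b1, and 0.324 and -0.068 for Nr1h4. The panels for Glul and Cyp2d9 show the 10 libraries as a separate group.

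**Figure D5:**
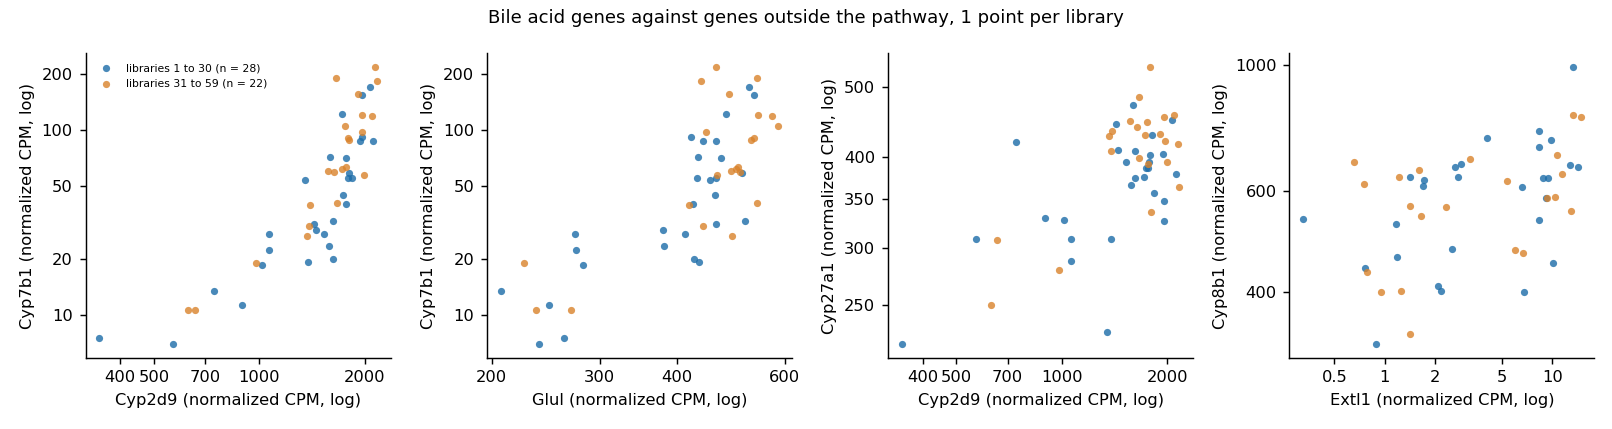
Normalized CPM of Cyp7b1 against Cyp2d9 and Glul, of Cyp27a1 against Cyp2d9, and of Cyp8b1 against Extl1 (all axes log), with 1 point per library (n = 50) coloured by library number. Cyp7b1 rises with Cyp2d9 inside both Glul clusters (r = 0.873 and 0.754), Cyp27a1 has r = 0.159 against it inside the upper, and Cyp8b1 rises with Extl1 (r = 0.475).

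Other states of the liver gave no call among the members. Dbp, a clock output factor known to activate Cyp7a1, ran from 2.23 to 36.1 normalized CPM, and 0 members were called with it, against 2.76% of all genes. Cyp7a1 had a slope of -0.18 (SE 0.10, limma adjusted p = 0.352) with Dbp, with r = -0.234 (permutation p = 0.102) and rho = -0.247 (permutation p = 0.0832), r = -0.257 without 2 libraries, and r = -0.244 and -0.237 within the sets. Sqle, a cholesterol synthesis enzyme at 0.226 to 3.102 normalized CPM, had 0 members and 0.00% of all genes called. Its median was 0.985 and its lowest value lay within the range of 3 reads (0.0951 to 0.259). Counting error therefore bears on this predictor, and the lack of calls does not show that sterol synthesis was unrelated to the members.

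Igfbp1, which is known to rise in fasting and ran from 45.2 to 768, had 0 members against 4.90% of all genes. Its lowest adjusted p among the members was 0.0595, for Cyp7b1 (slope -0.49, SE 0.16), which was called in plain CPM (slope -0.53, adjusted p = 0.0253). Saa1, an acute phase gene at 13.95 to 660.5, had 0 members against 0.131% of all genes, with Cyp7b1 again the nearest (slope 0.58, SE 0.15, limma adjusted p = 0.0895). At an unadjusted p under 0.05 the limma fits had 2 members with Dbp, 0 with Sqle, 2 with Igfbp1 and 4 with Saa1, and edgeR called 0 members with each.

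A wider list of 49 genes of bile acid synthesis, transport and regulation was read beside the members, of which 45 were in the table and 44 were tested. With Cyp7a1 as the predictor 3 of the 44 rose and 4 fell (15.9%, against 6.52% of all genes), and with Cyp8b1 5 rose and 7 fell (27.3%, against 10.8%). Hsd17b4, a peroxisomal enzyme of side chain shortening, rose with both, by 0.088 and 0.11 log2 units. The genes of the canalicular sterol pump, Abcg5 and Abcg8, fell with both, Abcg5 by 0.19 and 0.27 and Abcg8 by 0.18 and 0.23 log2 units. Both sterol pump genes also fell with Nr1h4, each by 0.17 or 0.18 log2 units, where 1 of the 44 rose and 2 fell (6.82%, against 3.66%).

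The relations of Abcb11 to the same genes had the opposite sign. With Abcb11 8 of the 44 rose and 1 fell, a share of 20.5% that is near the 20.8% of all genes, with Abcg8 higher by 0.24 (SE 0.041, limma adjusted p = 5.47e-05), Fgfr4, the hepatic receptor for the gut signal Fgf15, higher by 0.15 (SE 0.026), and Hsd17b4 lower by a slope of -0.088 (SE 0.020). These comparisons share the same libraries and are not independent of the pairs among members. With Nr0b2 8 rose and 4 fell (27.3%, against 19.2%), Mafg and Fgfr4 rising by 0.22 and 0.13 and Prox1 falling by 0.19 log2 units. Mafg encodes a repressor of bile acid synthesis genes, and Prox1 a corepressor of Cyp7a1.

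With Cyp7b1 13 of the 44 rose and 4 fell (38.6%, against 24.1% of all genes), led by the organic anion carrier Slco1a1 (slope 0.63, SE 0.053, limma adjusted p = 7.88e-14) and the efflux pump Abcg2 (slope 0.28, SE 0.026), while Slco1a4 and the hydroxylase Cyp39a1 fell by 0.31 each. With Cyp2d9 12 rose and 4 fell (36.4%, against 15.3%), again led by Slco1a1 and Abcg2 in 1 direction and Slco1a4 and Cyp39a1 in the other. Slco1a1, Abcg2 and Slco1a4 lie on chromosome 6, the other chromosome that segregated. With Glul 13 rose and 3 fell (36.4%, against 11.9%), and with Aldh1b1 6 rose and 11 fell (38.6%, against 17.6%).

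With Slc10a1 6 rose and 2 fell (18.2%, against 10% of all genes), with Cyp39a1 (slope 0.25, SE 0.060) and Hsd17b4 (0.081, SE 0.020) rising and the flippase Atp8b1 and the hydroxylase Cyp2c70 falling. With Cyp27a1 4 rose and 0 fell (9.09%, against 6.16%), Cyp2c70 by 0.27 (SE 0.068) among them. With Baat 3 rose and 1 fell (9.09%, against 11%), Akr1c6 and Abcg2 rising by 0.29 and 0.16 and Insig2 falling by 0.16 log2 units. With Slc27a5 only Fdx1, an electron donor of mitochondrial P450 enzymes, was called (2.27%, against 3.76%), and it rose by 0.078 (SE 0.021).

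With animal number 5 of the 44 rose and 7 fell (27.3%, against the 14.2% of all genes), and the 4 leading genes were Cyp39a1 (slope 0.61, SE 0.11, limma adjusted p = 0.000163), Insig2 (0.41, SE 0.088), Akr1c6 (-0.62, SE 0.12) and Mafg (-0.30, SE 0.078). Between the sets of library numbers 5 of the 44 were higher and 1 lower in libraries 31 to 59, a share of 13.6% that is near the 13.8% of all genes, with Abcc3 and Nr5a2 higher by 0.22 and 0.16 and Fdxr lower by a log2 difference of -0.27. With Extl1 the 1 gene called (2.27%, against 5.10%) was Ppargc1a (slope -0.27, SE 0.073). With Dbp 4 rose and 1 fell (11.4%, against 2.76%), led by the clock gene Nr1d1 (slope 0.57, SE 0.071). With Trp53inp1 2 rose and 2 fell (9.09%, against 12.1%), and with Igfbp1 3 rose and 1 fell (9.09%, against 4.90%). For Sqle and Saa1 limma called 0 of the 44, with 4 and 6 at an unadjusted p under 0.05.

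Among all 11435 other genes tested, those most like each member across the 50 libraries were found by Spearman rho, as a description of libraries that share depth, scaling and clusters. For Cyp7a1 they were Uck1 (0.672), Snx19 (0.655) and the member Nr1h4 (0.646), and the lowest was Sgk2 (-0.727). For Cyp8b1 they were Lgals8 (0.723), Spryd3 (0.717) and Daglb (0.715), and the lowest was Fgfr2 (-0.702). Nr1h4 in turn had Atg16l1 (0.655), Cyp7a1 (0.646) and Eme2 (0.627), with Map3k13 lowest (-0.703). Cyp7a1 and Nr1h4 were thus each among the 3 genes most like the other.

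Cyp7b1 had the closest partners of the 10, Mup1 (0.933), Mup7 (0.930) and Cyp4a12b (0.904), and Cyp2a4 at the other end (-0.866). The major urinary protein genes Mup1 and Mup7 have near-identical copies on chromosome 4 between which reads can be split, so that their single values are uncertain. Cyp27a1 had Mocs1 (0.672), Serpina1c (0.665) and Ero1lb (0.661), and Maged2 lowest (-0.695).

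Slc27a5 had Nucb1 (0.696) and Clptm1 (0.675), which lie on chromosome 7 as it does, then Plg (0.656), and Gm42047 lowest (-0.601). Baat had Gsta3 (0.671), Ola1 (0.643) and Ift20 (0.640), and the proliferation marker Mki67 lowest (-0.713). Abcb11 had Ptprk (0.777), Dsc2 (0.772) and Abca8b (0.754), and Tst lowest (-0.800). Slc10a1 had Pls1 (0.743), Tlcd2 (0.723) and the glycolytic enzyme gene Pklr (0.711), and Pogk lowest (-0.741). Nr0b2 had Pim3 (0.675), Ppp5c (0.666) and Camk2n1 (0.664), and Fan1 lowest (-0.801).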

How the data were processed

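Poly(A)-selected, stranded RNA of N2 livers was sequenced from both ends in 50 libraries, slightly more than the mice that the study counts, and all were kept. The authors mapped the reads with HISAT2 (build GRCm38.p5), assigned them to genes with HTSeq 0.11.1, and used edgeR to drop genes of low yield and to normalize the others. The deposited table holds the resulting expression signal. Its columns sum to 886171 to 1120647, as CPM of rescaled library sizes would. Whole reads could be recovered for 100% of the values, within 0.01 of a read. A poly(A) library misses transcripts without a tail, and scaling makes each value relative to the other genes.

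The 10 members, the wider list, the markers and the predictors were chosen with earlier results of these data known. Relations were fitted with limma 3.58.1 (lmFit and eBayes with a trend) in R 4.3.3 on log2(value + 0.5) for the 11436 genes whose mean reached 1, with Benjamini-Hochberg adjustment over all of them and a threshold of 0.05. Gene predictors were standardized to 1 SD. Correlations had 100000 permutations, 2-sided. Positions and exon lengths were read from GENCODE M21 (GRCm38), which matched 12173 of the 12185 genes, and promoters from RefSeq GRCm38.p6. The percentile of a CV was taken among the 200 genes nearest in mean.

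The genes named are the members, the predictors, the gene with the largest excess SD within 10 Mb of each member on chromosome 4, up to 2 called genes of the wider list per direction and predictor, and the 3 most and 1 least similar genes of each member. A gene of the wider list is not reported here. Marker genes named beside animal number and Cyp2d9 were chosen after their values were seen. In simulated counts with 200 genes changed 2-fold between the library sets, limma recovered 200 of 200 and called 7 others among 11406. The simulation gave all genes the same dispersion, drew the changed genes from those with a higher mean, and covered the library sets alone. It therefore does not measure recovery for members as variable as Cyp7b1 or for relations to gene levels. Alternatives were the pseudocount, the filter, plain CPM, median-of-ratios factors (DESeq2 1.42.0), depth or the other label as covariate, edgeR 4.0.16 on recovered reads, library 24 left out and 1 library per animal number. For gene predictors the other label was the library set. Leaving out each library, leaving out library 15, and the cluster of Glul or of animal numbers as a covariate were added after seeing the data. Correlations were computed in numpy 2.4.6 under Python 3.11.15, and plots were drawn with matplotlib 3.10.9. Genotypes and linkage were not analysed here.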

Additional observations from a re-analysis of the deposited data

How the results depend on the processing

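Of the counts of members or pairs called under the alternatives, 12 moved by more than 1.5 times and the rest stayed within that. In plain CPM the members called were 1 with Igfbp1 (0 reported), 2 with Cyp2d9 (4 reported) and 4 with Aldh1b1 (2 reported). Without library 24 the count with Aldh1b1 was 1, and without library 15 that with Cyp2d9 was 2. With the Glul cluster in the fit 2 members were called with Glul (4 reported) and 5 with Aldh1b1. On leaving out each library in turn the counts ran up to 1 with Igfbp1 and with Saa1 (0 reported), down to 2 with Cyp2d9, and from 1 to 4 with Aldh1b1. With the cluster of animal numbers in the fit 3 members were called with animal number (4 reported), Nr0b2 being lost. The counts with library set, animal number, Dbp, Sqle, Extl1 and Trp53inp1 stayed within 1.5 times. The pairs called ran from 8 in plain CPM to 13 with depth as a covariate, and from 9 to 14 on leaving out each library.

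The directions that turned did so with the Glul cluster in the fit, namely Cyp8b1 with Cyp2d9 (-0.215) and Glul (-0.0898), and Cyp27a1 (0.0639) and Nr1h4 (0.0337) with Aldh1b1. Their causes were not tested. Plain CPM moved the median slope of all genes by at most 0.038. Of 100 interactions with the library set limma called 0 (lowest adjusted p = 0.288, 12 at an unadjusted p under 0.05). No paired analysis was possible because all libraries form 1 group. Depth limited no member, since every library had at least 82 reads for each.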
